A study of Mus musculus with 29 samples.

Results

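The comparison described here is the one between microglia of mice that met lipopolysaccharide (LPS) for the second time and microglia of mice that met it for the first time, in animals whose microglia had not been depleted. It rests on 9 of the 29 libraries of the study, chosen by their labels alone: the 5 libraries of the group LL and the 4 of the group PL, with every gene of the count table. All mice were C57BL/6J males from Envigo that were injected into the abdomen at 10 weeks of age and again 5 weeks later, with the brain removed 3 h later, at an age of 15 weeks. LL mice received 1 mg/kg LPS from Escherichia coli O111:B4 at both injections, whereas PL mice received saline first and the same LPS second. Starting 1 week after the first injection, both groups were gavaged for 5 days with a vehicle of 20% hydroxypropyl-beta-cyclodextrin. Beside them stand PP (n = 5), given saline at both injections and the same vehicle, and 2 groups given the CSF1R inhibitor BLZ945 at 169 mg/kg per day in place of vehicle: PBL (n = 5; saline, BLZ945, LPS) and LBL (n = 5; LPS, BLZ945, LPS). A sixth group, PBP (n = 5; saline, BLZ945, saline), enters through 1 library that was sorted on another instrument than the rest of its group. Live singlets that stained high for CD11b, at an intermediate level for CD45 and not for Ly6C were sorted from whole brains without the olfactory bulbs, and polyadenylated RNA of each sample was sequenced in bulk.

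LPS is a building block of the outer membrane of gram-negative bacteria. It is sensed by TLR4 with the help of CD14 and MD-2, and the signal runs along a MyD88 branch to NF-kB and the MAP kinases and along a TRIF branch to IRF3 and type I interferon. Microglia are the resident macrophages of the brain and live long, so that an earlier inflammatory stimulus can leave traces in how the same cells respond to a later one; a dampened second response is called tolerance and an enhanced one training.

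Total counts were 5806269 to 9056425 per library in PL and 6404550 to 12671476 in LL, and RNA quality numbers, an integrity score on which higher is better, were 6.5 to 9.1 and 7.9 to 8.9. The 12 markers of microglia and macrophages were present in every library, at a mean log2 CPM (CPM, counts scaled to library size) of 10.79 to 10.91 in PL and 10.6 to 10.91 in LL. Of 14 neutrophil markers, 8 were tested and none was called. Their mean log2 CPM was 2.22 in PL replicate 3 and 2.5 in LL replicate 4, against -0.52 to 0.29 in the other libraries of both groups, and Ly6g and Elane had no count in either group. PL was sorted on a MoFlo Astrios on days 4 (replicates 1 and 2) and 5 (replicates 3 and 4), and LL on a MoFlo XDP on days 2 (replicates 1 to 4) and 1 (replicate 5). No sorting day and no sorter holds libraries of both groups, so no value within a batch exists and the earlier LPS cannot be told apart from the sorter and the day. The labels describe 1 sample per library and nothing further about the animals, and the p-values below therefore reflect the variation among these samples alone, which may be technical. In bulk RNA, fewer cells of a type and less RNA per cell cannot be told apart.

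Of 16632 genes tested with edgeR's quasi-likelihood test, 338 were lower in LL than in PL (2.03% of the genes tested) and 125 higher (0.752%) at a Benjamini-Hochberg adjusted p under 0.05, and these are the genes called below. Of the 338 lower genes, 135 belong to one of the lists of immune, metabolic or housekeeping genes used here, and none to the lists of neuron, astrocyte, oligodendrocyte or endothelial markers. Among the higher genes, 4 belong to the first kind of list and 6 to the second. The share of all genes tested that belongs to these lists is not given here, so no excess or lack is read from these counts. Fold changes were larger on average on the higher side, with a median log2 fold change of 1.92 against -0.96 on the lower side, and 160 lower genes (0.962%) and 95 higher genes (0.571%) differed at least 2-fold. In 244 of the lower and 90 of the higher genes no LL library overlapped a PL library; these are 1.47% and 0.541% of all genes tested. With or without a call, 2.84% of the genes tested were separated with LL lower and 2.69% with LL higher.

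**Figure D1:**
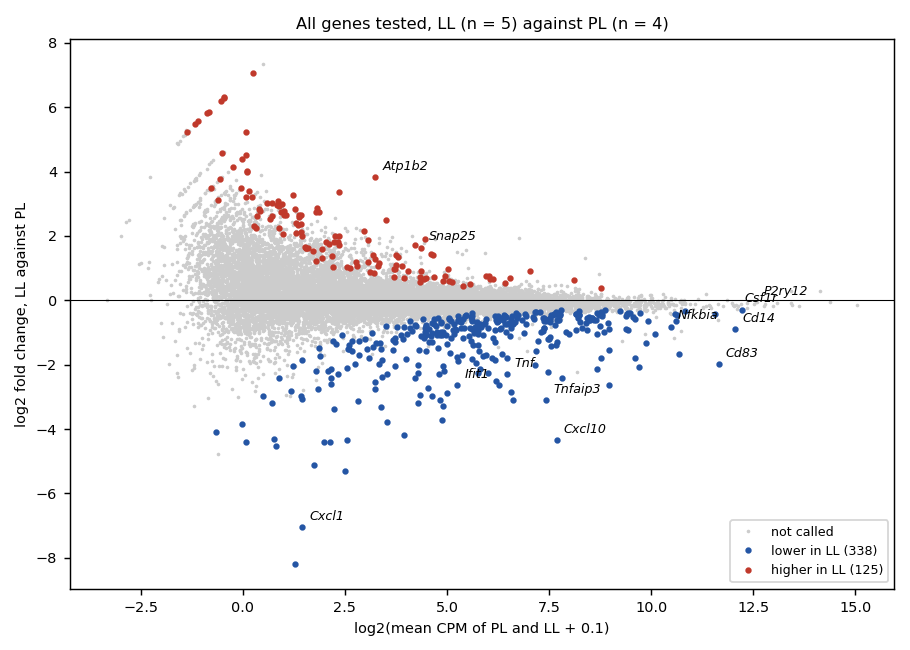
Log2 fold change of every gene tested, LL (n = 5) against PL (n = 4), on the y axis against log2 of the mean CPM of both groups plus 0.1 on the x axis, with the 338 genes called lower in blue, the 125 called higher in red and the others in grey. The lower genes reach far into the range of abundant transcripts, such as Cd14, Cd83 and Nfkbia, whereas most of the higher genes lie at low CPM.

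Cytokine genes were lower in LL as a group. Of 17 tested, 11 were called lower and none higher, with a median log2 fold change of -1.1 against 0.01 over all genes tested; Csf3, which had no count in LL, leaves this median at -1.1 when it is set at its bound. Tnf (ENSMUSG00000024401, chromosome 17), the gene of tumour necrosis factor, stood at 158.1, 52.2, 203.4 and 174.3 CPM in PL replicates 1 to 4 and at 21.9, 19.7, 33.1, 29.6 and 46.8 CPM in LL replicates 1 to 5. No LL library reached the lowest PL library, and the PP libraries averaged 2.86 ± 1.42 CPM for Tnf (SD, n = 5), below every LL library. Il1b, the gene of interleukin 1 beta, was at 320.1, 70.6, 397.8 and 380.6 CPM in PL and at 65.8, 40.1, 59.9, 36.9 and 109.3 CPM in LL. Here the groups overlapped, because PL replicate 2 lay below LL replicate 5, and the log2 fold change was -2.23 (SE 0.39, adjusted p = 0.000794 by edgeR).

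Il1a, which encodes the interleukin 1 that is stored in cells and released on damage, was lower as well, with 1340.2 ± 455.2 CPM (SD) in the 4 PL libraries and 528.8 ± 60.6 CPM in the 5 LL libraries. Il1rn, the gene of the secreted antagonist of both interleukins, was lower too, from 187.4, 62.4, 146.5 and 140.1 CPM to 15.9, 11.1, 18.2, 12.3 and 50.2 CPM (log2 fold change -2.64, SE 0.43, adjusted p = 0.000369 by edgeR). The agonist genes and the antagonist gene of the interleukin 1 system were therefore all lower in LL. Both chains of interleukin 27 were lower, Il27 by a log2 fold change of -1.53 (SE 0.32) and Ebi3 by -0.94 (SE 0.14). Osm (-1.0, SE 0.16), which encodes oncostatin M, was lower, and so was Tnfsf9 (-3.09, SE 0.41), which encodes the ligand of the costimulatory receptor 4-1BB. Il6 was at 33.9 to 43.6 CPM in PL and 24.4 to 29.7 CPM in LL, without overlap (-0.59, SE 0.14); its call was lost without PL replicate 1 (adjusted p = 0.0775 by edgeR) or 3 (0.0708). Il12b, the shared chain of interleukins 12 and 23, had no count in PP and was at 18.9 to 89.1 CPM in PL and 2.92 to 17.6 CPM in LL (-2.88, SE 0.69, adjusted p = 0.0259 by edgeR). Leaving out LL replicate 1, 2 or 3 or PL replicate 1, 3 or 4 ended the call for Il12b, with adjusted p from 0.0557 to 0.0931. Csf3, the gene of the granulocyte colony-stimulating factor, was at 1.60 to 7.84 CPM in PL and without a count in LL, at least 70.4-fold lower. No call was made for Tgfb1 (-0.82), Il15 (-1.1), Csf1 (-0.72), Clcf1 (-0.62), Il18 (0.07) or Il33 (3.89).

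**Figure D2:**
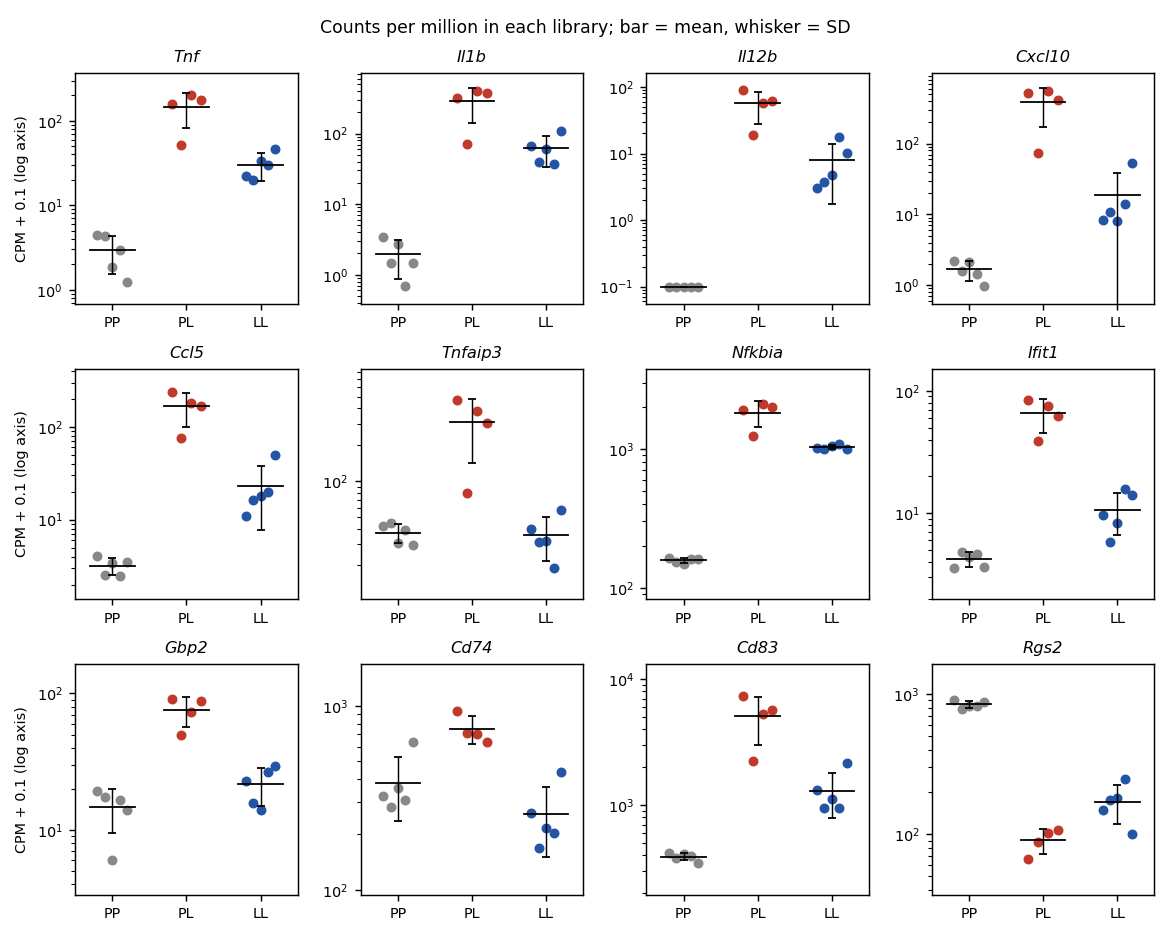
CPM plus 0.1 on a log axis in each library of PP (grey, n = 5), PL (red, n = 4) and LL (blue, n = 5) for 12 genes, with the mean as a bar and the SD as whiskers, which run off the axis where the SD exceeds the mean. In most panels PL replicate 2 is the lowest red point and LL replicate 5 one of the highest blue points, and Rgs2 runs the other way, with PL lowest on average and PP highest.

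Chemokine genes showed the deepest median of all lists, -1.90 over 18 genes tested, of which 11 were lower and none higher. Cxcl10 (ENSMUSG00000034855, chromosome 5), which attracts T cells and is induced by interferon, was at 522.6, 73.4, 549.8 and 418.7 CPM in PL and at 8.18, 10.8, 7.88, 14.0 and 54.0 CPM in LL. Its lowest PL library stayed above its highest LL library, and the log2 fold change was -4.35 (SE 0.56, adjusted p = 2.75e-05 by edgeR). Ccl5 was at 234.7, 76.6, 182.5 and 169.5 CPM in PL and at 10.8, 16.0, 18.0, 19.9 and 49.5 CPM in LL (-2.85, SE 0.38). The neutrophil attractants were at low levels: Cxcl2 was at 2.5 to 18.2 CPM in PL and 0.11 to 1.8 CPM in LL (-4.34, SE 0.69), and Cxcl1 had 165 counts in the 4 PL libraries and 1 count in the 5 LL libraries, a ratio of 239 with a 95% exact counting interval of 42.2 to 9480. Further attractants of leukocytes were lower too, Ccl3 by a log2 fold change of -2.02 (SE 0.32), Ccl4 by -1.79 (SE 0.30) and Ccl7 by -2.27 (SE 0.37). Cxcl9 (-3.14, SE 0.68), Cxcl11 (-4.31, SE 0.89), Cxcl16 (-0.98, SE 0.16) and Ccl9 (-0.81, SE 0.13) were lower as well.

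Not every chemokine differed beyond the spread. Ccl12, by CPM the most abundant chemokine in LL, was at 2699.0 to 5041.7 CPM in PL and 2213.6 to 3286.7 CPM in LL, with overlap (log2 fold change -0.62, SE 0.23, adjusted p = 0.167 by edgeR). For Ccl2 the groups met between 157.0 and 174.2 CPM (-0.82, SE 0.40, adjusted p = 0.317), and for Ccl6, which was at 368.5 ± 22.5 CPM already in PP (SD, n = 5), the difference was -0.13 (SE 0.11).

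The regulators of NF-kB, a transcription factor family that drives many inflammatory genes, were lower in 13 of 27 cases and higher in none (median log2 fold change -0.82). Nfkbia (ENSMUSG00000021025, chromosome 12), whose product I-kappa-B alpha holds NF-kB in the cytoplasm, was at 1916.7, 1246.5, 2097.8 and 2011.9 CPM in PL and at 1023.0, 991.4, 1046.1, 1086.6 and 1004.9 CPM in LL. The LL libraries lay within 1 narrow band below every PL library and above the 158 ± 6.61 CPM of PP (SD, n = 5). Tnfaip3 (ENSMUSG00000019850, chromosome 10), which encodes the deubiquitinase A20 that ends NF-kB signalling, was at 474.6, 78.8, 380.3 and 300.8 CPM in PL and at 39.7, 31.1, 31.5, 18.7 and 57.5 CPM in LL, against a PP mean of 37.1 CPM. Its LL libraries thus spanned the PP mean. The A20 partners Tnip1 (-1.29, SE 0.20) and Tnip3 (-3.11, SE 0.52) were lower. So were the inhibitors Nfkbie (-1.96, SE 0.25) and Nfkbib (-1.30, SE 0.15). Among the subunits, Relb (-2.21, SE 0.34), Nfkb2 (-1.65, SE 0.25) and Rel (-1.02, SE 0.15) were lower without overlap and Nfkb1 with overlap (-0.52, SE 0.11), whereas Rela had -0.41 and no call. Birc3, an antiapoptotic ubiquitin ligase, averaged 295 ± 98.9 CPM (SD) over the 4 PL libraries and 113 ± 23.9 CPM over the 5 LL libraries. For the kinase genes Ikbkb (0.10), Chuk (-0.05) and Ikbkg (-0.12) no difference was called.

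Promoters of 7 of these genes are shown because each gene was called lower and each window holds at least 1 of the 3 motifs searched. Each is 250 bases before to 50 bases after a start site from RefSeq on the build GRCm38.p6, on the gene's strand, with the motif matches in capitals. NF-kB matches are written by the motif's name, the interferon response element (ISRE) was searched as 2 copies of GAAA with 2 bases of any kind between them and the AP-1 site as TGANTCA, each on both strands. In Cxcl10 (chr5:92348840-92349139, minus strand) the capitals mark, in order, an ISRE, 2 NF-kB matches and an AP-1 site. In Cxcl1 (chr5:90890995-90891294, plus strand) and Cxcl2 (chr5:90903649-90903948, plus strand) they mark 2 overlapping NF-kB matches. In Tnfaip3 (chr10:19015361-19015660, minus strand) they mark an AP-1 site and 2 NF-kB matches, while the window of its second start site holds none of the 3 motifs; in Nfkbia (chr12:55492598-55492897, minus strand) 1 NF-kB match. In Ifit1 (chr19:34640639-34640938, plus strand) they mark 2 ISREs, and in Isg15 (chr4:156200769-156201068, minus strand) 3 overlapping ISREs.
Cxcl10: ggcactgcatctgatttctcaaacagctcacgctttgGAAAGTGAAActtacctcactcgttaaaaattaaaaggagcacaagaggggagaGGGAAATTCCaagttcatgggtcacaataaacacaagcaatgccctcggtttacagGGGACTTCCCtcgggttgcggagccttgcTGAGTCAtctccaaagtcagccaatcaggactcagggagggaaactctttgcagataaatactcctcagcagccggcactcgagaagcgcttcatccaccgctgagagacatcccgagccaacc
Cxcl1: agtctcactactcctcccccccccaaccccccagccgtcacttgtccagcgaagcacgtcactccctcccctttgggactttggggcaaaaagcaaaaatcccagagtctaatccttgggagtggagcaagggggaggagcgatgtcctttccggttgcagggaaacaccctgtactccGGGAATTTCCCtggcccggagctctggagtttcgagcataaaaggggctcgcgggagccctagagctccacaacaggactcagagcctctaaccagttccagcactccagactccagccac
Cxcl2: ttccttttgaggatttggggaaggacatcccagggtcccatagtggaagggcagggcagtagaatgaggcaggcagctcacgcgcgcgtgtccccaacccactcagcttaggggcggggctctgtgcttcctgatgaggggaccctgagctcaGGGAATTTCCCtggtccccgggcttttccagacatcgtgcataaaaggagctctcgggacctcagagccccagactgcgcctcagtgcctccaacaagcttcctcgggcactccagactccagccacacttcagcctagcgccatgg
Tnfaip3: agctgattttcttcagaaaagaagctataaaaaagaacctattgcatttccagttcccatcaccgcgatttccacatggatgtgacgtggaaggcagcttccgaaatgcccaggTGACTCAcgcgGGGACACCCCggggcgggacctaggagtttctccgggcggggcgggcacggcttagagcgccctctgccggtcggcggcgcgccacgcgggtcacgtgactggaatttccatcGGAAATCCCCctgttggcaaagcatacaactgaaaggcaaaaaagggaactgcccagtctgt
Nfkbia: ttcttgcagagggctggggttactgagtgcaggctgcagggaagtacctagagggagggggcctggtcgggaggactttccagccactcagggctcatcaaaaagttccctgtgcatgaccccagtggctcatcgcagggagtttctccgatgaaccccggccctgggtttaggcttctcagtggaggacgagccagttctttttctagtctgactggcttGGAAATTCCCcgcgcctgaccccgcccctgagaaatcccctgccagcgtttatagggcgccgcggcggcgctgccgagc
Ifit1: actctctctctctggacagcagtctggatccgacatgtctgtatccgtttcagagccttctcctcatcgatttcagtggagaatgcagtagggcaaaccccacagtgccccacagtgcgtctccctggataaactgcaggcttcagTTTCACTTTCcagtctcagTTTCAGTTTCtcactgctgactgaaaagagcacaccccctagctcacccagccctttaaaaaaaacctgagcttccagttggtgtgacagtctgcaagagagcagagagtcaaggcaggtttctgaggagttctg
Isg15: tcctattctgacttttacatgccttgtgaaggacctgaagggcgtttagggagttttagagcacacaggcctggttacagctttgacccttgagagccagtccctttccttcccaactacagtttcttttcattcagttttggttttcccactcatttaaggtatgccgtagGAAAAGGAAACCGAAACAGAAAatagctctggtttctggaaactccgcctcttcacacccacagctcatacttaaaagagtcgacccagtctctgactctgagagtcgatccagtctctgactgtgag

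Cxcl1 and Cxcl2 carry the same letters in capitals, 71 and 97 bases before the start, and the ISRE of Ifit1 is read on the opposite strand. Over the 328 promoters of 245 genes lower in LL that had an entry, 59 held an NF-kB match (18.0%), 32 an ISRE (9.76%) and 43 an AP-1 site (13.1%). The shares over all 32851 promoters of the table were 4.51%, 3.44% and 7.81%, over the 13626 promoters of genes tested 5.18%, 3.17% and 5.12%, and over the 113 promoters of genes higher in LL they were 7.08%, 2.65% and 4.42%. A match is a description of these letters and not a bound site. The windows of Tnf and Il1b held none of the 3 motifs.

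Of 19 genes of the TLR4 complex and its signalling, 2 were lower and none higher, with a median log2 fold change of -0.17. The list mean was 6.11 to 6.15 log2 CPM in PL and 5.75 to 6.04 in LL. Cd14, the co-receptor gene, was at 7136.9, 4116.9, 5363.2 and 5391.6 CPM in PL and at 3236.5, 2586.5, 2831.9, 2706.9 and 3460.7 CPM in LL (-0.89, SE 0.13, adjusted p = 2.09e-05 by edgeR), without overlap. Tlr4 itself was at 59.5 to 98.0 CPM in PL and 73.7 to 129.2 CPM in LL, with overlap (0.38, SE 0.15, adjusted p = 0.196), and Ly96, which encodes MD-2 (0.07), Myd88 (-0.25), Ticam1 (-0.62), Irak4 (0.17), Traf6 (-0.56) and Irf3 (0.02) were not called. Map3k8, the kinase that links the receptor to ERK, was called lower (-0.72, SE 0.19, adjusted p = 0.0259). Without PL replicate 1 this became -0.56 (adjusted p = 0.163), and the call was also lost without PL replicate 4 (0.0513), LL replicate 1 (0.0609) or LL replicate 5 (0.054). Among 21 other pattern receptors 4 were lower, with Tlr2 the deepest of them: 1820.5, 539.2, 1526.3 and 1503.4 CPM in PL and 288.8, 270.6, 264.7, 212.0 and 582.7 CPM in LL. PL replicate 2 and LL replicate 5 overlapped there. Cgas, the sensor of cytosolic DNA, was lower by -0.59 (SE 0.12).

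Brakes on TLR signalling are linked to endotoxin tolerance in macrophages. The mean of their list was 3.65 to 4.2 log2 CPM in PP, 5.07 to 5.62 in PL and 4.65 to 5.05 in LL. Their levels in LL mice before the second LPS were not measured. Of 23 tested, 6 were lower and none higher (median log2 fold change -0.64). Irak3, the inhibitory kinase homologue, was at 14.4 to 18.2 CPM in PL and 7.12 to 13 CPM in LL (-0.78, SE 0.27, adjusted p = 0.117 by edgeR), and Tollip (-0.08), Inpp5d (-0.02) and Ptpn6 (-0.15) were not called. Lower were Cish (-1.17, SE 0.23), a feedback inhibitor of cytokine receptors, and Il10ra (-0.85, SE 0.15), the receptor chain of the anti-inflammatory interleukin 10. Zc3h12a, which encodes the ribonuclease regnase-1 that degrades cytokine mRNA, was lower by -0.98 (SE 0.23) with a call that was lost without PL replicate 3 (-0.76, adjusted p = 0.101). Dusp2, a phosphatase of MAP kinases, went from 5.70 to 31.8 CPM in PL to 0.303 to 3.94 CPM in LL (-3.77, SE 0.60). Dusp1 had the widest spread of the group, 1580.8, 165.9, 701.1 and 967.2 CPM in PL against 109.6 to 211.5 CPM in LL (-2.62, SE 0.64, adjusted p = 0.0243). Without PL replicate 1 its value was -2.12 (adjusted p = 0.119). It was also uncalled without PL replicate 4 or any of LL replicates 1 to 4 (adjusted p from 0.0508 to 0.067). Of 18 immediate early genes 2 were lower, Egr2 (-1.71, SE 0.38) and Ier3 (-1.19, SE 0.28), the second not without PL replicate 3 (0.0672) or 4 (0.0782). Egr1 (-2.23, SE 0.93) and Fos (-1.45, SE 0.98) had large negative values with standard errors that left them uncalled.

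Among interferon-stimulated genes all 39 tested had a fold change below 0, beside 8082 of all 16632 genes tested. Of the 39, 18 were called lower and none higher, and the median log2 fold change was -0.91. With the sorter as a term in the fit, 30 of the 39 had a fold change below 0. Ifit1 (ENSMUSG00000034459, chromosome 19), which binds viral RNA, was at 84.1, 38.9, 75.8 and 62.3 CPM in PL and at 9.49, 5.74, 8.19, 15.6 and 13.9 CPM in LL. Each LL library was below each PL library and above the PP mean of 4.12 CPM (log2 fold change -2.63, SE 0.28, adjusted p = 1e-06 by edgeR). Rsad2, the antiviral enzyme viperin (-2.26, SE 0.37), Cmpk2, a mitochondrial nucleotide kinase (-2.11, SE 0.34), Oasl1 (-2.55, SE 0.51), Isg15 (-1.54, SE 0.22) and Ifit3 (-1.48, SE 0.23) were lower without overlap. The negative regulator Usp18 was lower as well (-1.09, SE 0.22). Of 14 interferon-inducible GTPases 6 were lower, among them Gbp2, which averaged 75.4 ± 18.9 CPM (SD) over the 4 PL libraries and 21.6 ± 6.64 CPM over the 5 LL libraries, Gbp5 (-1.58, SE 0.25), Ifi47 (-2.39, SE 0.40) and Irgm1 (-0.96, SE 0.18). Tgtp2 was lower too (-2.60, SE 0.48), but it can share reads with its copy Tgtp1 (-0.01), so both values are uncertain. Irf1, the transcription factor gene that links NF-kB to interferon targets, was at 226.9, 111.9, 270.8 and 259.3 CPM in PL and at 76.1, 69.5, 68.2, 55.3 and 95.2 CPM in LL, without overlap (-1.58, SE 0.18). For the receptor and kinase genes Ifngr1 (0.01), Jak1 (-0.29), Jak2 (-0.30) and Tyk2 (0.21) no difference was called, while Ifngr2 was lower (-0.46, SE 0.10).

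Genes of antigen presentation to CD4 T cells by MHC class II were lower in part. Of 13 genes tested 4 were lower and none higher, with a median log2 fold change of -0.27. Between LBL and PBL, 1 of the 13 was called lower with earlier LPS, and the median was 0.03. Cd74, the invariant chain, was at 934.2, 715.3, 701.7 and 638.7 CPM in PL, at 260.6, 169.0, 215.3, 202.7 and 438.5 CPM in LL, and at 381.5 CPM on average in PP. H2-Aa was at 104.4 to 144.1 CPM in PL and 26.2 to 68.1 CPM in LL (-1.67, SE 0.33), against 79.3 CPM in PP. Every LL library of H2-Aa was thus below the PP mean. The loading factors H2-DMa (-0.23) and H2-DMb1 (-0.16) and the transactivator Ciita (0.53) were not called. Class II genes are also high in border-associated macrophages, and all 10 tested markers of those cells had a fold change below 0, with a median of -0.96 and no call. With the sorter as a term in the fit, 7 of the 10 had a fold change below 0. The summed level of these markers was 98.9 to 186.9 CPM in PL and 60.8 to 107.8 CPM in LL; Mrc1 and Ms4a7 were at 42.2 and 9.17 CPM on average in PL and at 28.5 and 4.78 CPM in LL. The part of these cells in the class II values was not tested.

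Costimulatory and checkpoint genes were lower in 8 of 16 cases, with a median log2 fold change of -0.89 and none higher. Cd83 (ENSMUSG00000015396, chromosome 13), a maturation marker of antigen-presenting cells, was among the most abundant genes of the whole lower list, at 7277.6, 2250.9, 5284.3 and 5677.7 CPM in PL and 1312.2, 954.8, 1120.3, 941.9 and 2150.3 CPM in LL, just without overlap. Cd40, the receptor of the T cell ligand CD154, was at 13.4 to 43.3 CPM in PL and 1.07 to 10.2 CPM in LL (-3.18, SE 0.51). Cd69 (-2.96, SE 0.42), the inhibitory ligand gene Cd274, which encodes PD-L1 (-1.31, SE 0.20), the adhesion genes Icam1 (-1.06, SE 0.13) and Vcam1 (-1.89, SE 0.30) were lower, and Cd86 was not called (-0.24). Chemotactic receptors followed in 5 of 22 cases: Gpr84, a receptor for medium-chain fatty acids, was at 1166.3 to 2988.6 CPM in PL and 575.5 to 1071.2 CPM in LL (-1.67, SE 0.20), and Ccrl2, which presents chemerin, at 41.0 to 177.0 and 15.6 to 31.2 CPM (-2.52, SE 0.28). Cx3cr1 had a log2 fold change of 0.00 and P2ry12 of -0.06. Of 24 integrin, adhesion and matrix-degrading genes 5 were lower, with a median of -0.23. Mmp13, a collagenase, was at 5.70 to 16.1 CPM in PL and at 0.146 and 1.1 CPM in LL replicates 1 and 5 and without a count in the other LL libraries.

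Effector enzymes were lower in part. Sod2, the mitochondrial superoxide dismutase, averaged 96.0 ± 14.5 CPM (SD) over the 4 PL libraries and 42.4 ± 5.52 CPM over the 5 LL libraries. Also lower were Cybb, the catalytic subunit of the phagocyte oxidase, from 58.3 ± 14.7 to 17.1 ± 8.19 CPM, and Acod1, which makes itaconate, from 8.23 ± 3.23 to 1.64 ± 1.23 CPM, the last not called without PL replicate 4 (adjusted p = 0.0759 by edgeR). The cytosolic oxidase subunits Ncf1 (-0.25) and Ncf4 (-0.32) were not called. Ptgs2, which encodes cyclooxygenase 2, was lower (-2.04, SE 0.36) with overlap of PL replicate 2, as was the prostaglandin receptor gene Ptger4 (-0.93, SE 0.18), and the other 15 genes of this list were not called. Of 17 glucocorticoid-response genes and metallothioneins 5 were lower and none higher, with a median log2 fold change of -0.18. The list mean was 5.85 to 6.16 log2 CPM in PL and 5.47 to 5.71 in LL, without overlap. The metal-binding genes Mt1 (-0.98, SE 0.14) and Mt2 (-1.73, SE 0.24) and the cell cycle inhibitor Cdkn1a (-1.14, SE 0.16) were lower. Fkbp5 (-0.11), Tsc22d3 (0.10), Sgk1 (-0.18) and Per1 (-0.45), which circulating corticosterone induces, were not called. The part of corticosterone was not tested. Of 27 glycolysis genes and HIF1A targets 2 were lower, Pfkfb3 (-0.90, SE 0.15), which drives glycolytic flux, and Adm, the gene of the peptide adrenomedullin. Adm was at 9.71, 0.891, 9.23 and 5.43 CPM in PL and at most 0.438 CPM in LL. Of 40 chromatin modifiers 1 was called, Kdm6b, the LPS-induced demethylase of histone H3 lysine 27. Over all genes tested 2.03% were called lower and 0.752% higher, and 1 call among 40 genes is near these shares. Kdm6b was at 484.0, 318.0, 532.7 and 452.5 CPM in PL and 208.8, 204.7, 239.7, 225.2 and 310.4 CPM in LL, without overlap (-0.91, SE 0.15).

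Several lists held few calls or none. Among 39 homeostatic genes of resting microglia 1 was called, higher, and the median log2 fold change was -0.06. P2ry12 was at 5411.3 to 7547.6 CPM in PL and 5270.9 to 7085.6 CPM in LL, Sall1 at 69.9 to 128.3 and 75.0 to 108.8 CPM, and Csf1r at 4169.3 to 5728.1 and 3315.1 to 5222.1 CPM, each with overlap. No gene was called among 38 nuclear-encoded genes of oxidative phosphorylation (median -0.08), 23 of the TCA cycle and fatty acid oxidation (-0.04), 35 lysosomal genes (-0.12), 44 ribosomal protein genes (-0.10), 33 cell cycle genes (-0.25), 22 of the mTOR and AKT pathway (-0.06), 21 phagocytic and inhibitory receptors (-0.06) and 6 Fc receptors (-0.06). Over all genes tested 2.03% were called lower and 0.752% higher, so lists of this size hold few calls or none at that share. With a standard error of 0.26 in the median gene, differences well under 2-fold can be missed. Among genes encoded by the mitochondrial genome 3 of 8 were lower, with none higher and a median of -0.51. Of these mt-Nd6, a subunit gene of complex I, was at 214.7, 144.6, 406.8 and 238.3 CPM in PL and 145.8, 131.2, 142.4, 172.9 and 147.3 CPM in LL (-0.77, SE 0.18), with overlap. The highest value came from PL replicate 3, the library with the lowest RNA quality number, 6.5, and without it the fold change was -0.40 (adjusted p = 0.174 by edgeR).

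**Figure D3:**
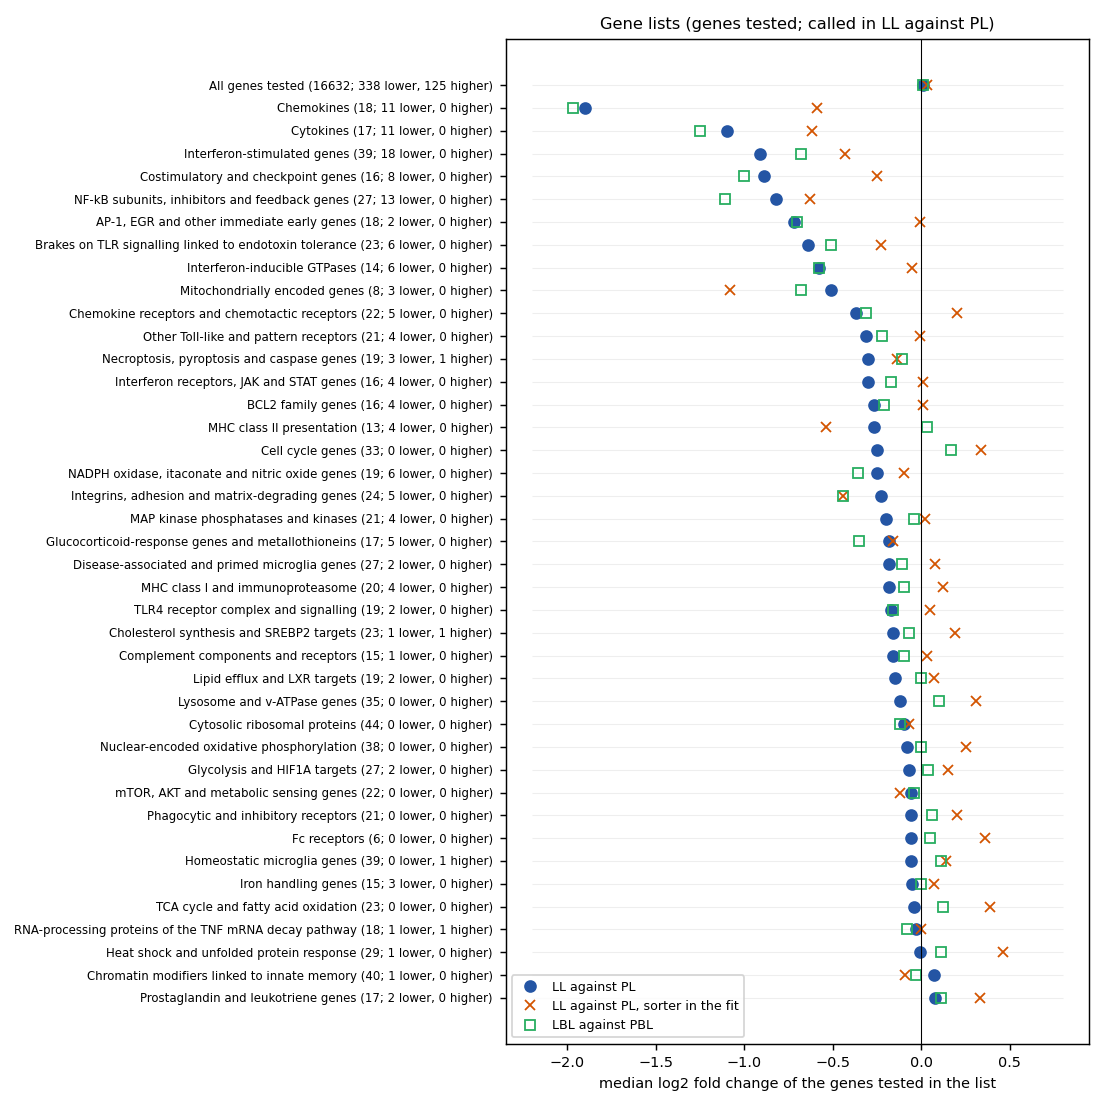
Median log2 fold change of each gene list for LL against PL (blue circles), for the same comparison with the sorter in the fit (orange crosses) and for LBL against PBL (green squares); numbers beside the names give the genes tested and those called lower and higher in LL against PL. The chemokine and cytokine medians, -1.90 and -1.1, are the lowest circles, the orange crosses lie nearer to 0 for nearly all inflammatory lists, and the circles of the metabolic lists lie between -0.16 and 0.08 apart from the mitochondrially encoded genes.

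Some of the higher genes are described singly here. Rgs2, a regulator of G protein signalling that was singled out after its values were seen, was at 842.9 ± 51.1 CPM in PP, at 66.5, 87.5, 102.3 and 107.9 CPM in PL and at 148.2, 176.3, 179.8, 246.4 and 100.9 CPM in LL. The difference from PL was 0.90 (SE 0.20, adjusted p = 0.00734), with LL replicate 5 inside the PL range. Tia1, which encodes an RNA-binding protein that silences Tnf mRNA, was at 46.9 to 57.9 CPM in PL and 60.3 to 101.3 CPM in LL (0.66, SE 0.15). H2bc6, a histone gene, was at 0.397 to 3.48 CPM in PL, 6.57 to 9.42 CPM in LL and 19.6 ± 2.99 CPM in PP. Pycard, the inflammasome adaptor ASC, was higher by 0.38 (SE 0.11, adjusted p = 0.04), a call that held in 2 of 9 fits that left out 1 library and was lost without PL replicate 1, 3 or 4 or LL replicate 1, 3, 4 or 5 (adjusted p from 0.0593 to 0.115).

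Of the 125 higher genes, 6 are in the marker lists of neurons, astrocytes, oligodendrocytes or endothelial cells. Snap25, a synaptic vesicle fusion protein, was at 10.7, 7.13, 10.9 and 11.1 CPM in PL and at 13.9, 22.9, 35.2, 25.3 and 59.1 CPM in LL, and Kif1a, an axonal motor, at 5.35, 2.67, 3.55 and 1.85 CPM and at 8.32, 19.4, 12.9, 13.7 and 40.6 CPM. LL replicate 5 was the highest LL library in both. Also higher were Camk2a (1.88, SE 0.53), Mapt (2.01, SE 0.55) and the astrocyte genes Clu (1.42, SE 0.39), Sparcl1 (1.71, SE 0.47) and Aldoc (1.92, SE 0.52). Over the whole lists, 3 of 17 neuron and 3 of 14 astrocyte markers were higher, none lower, and the medians were 1.64 and 1.22. The neuron markers summed to 51.7 to 118.2 CPM in PL and 109.3 to 472.4 CPM in LL. The 5 red blood cell genes, globins among them whose near-identical copies can share reads, had a median of 1.94, no call, and summed levels of 6.48 to 19.8 and 29.5 to 98.8 CPM. The calls for these 7 genes lay near the threshold: all were lost without LL replicate 5 (adjusted p from 0.0546 for Kif1a to 0.162 for Camk2a), without PL replicate 3 (0.0567 for Kif1a to 0.101 for Clu) and without PL replicate 4 (0.0791 to 0.162), and all but that of Kif1a without PL replicate 1 (0.11 for Snap25 to 0.147 for Aldoc). LL replicates 2 to 4 and PL replicate 2, left out singly, ended some of these calls as well. The fold changes stayed above 0 in those fits, at 1.22 to 1.53 for Clu, 2.01 to 2.55 for Kif1a and 1.62 to 2.16 for Aldoc. Since these genes were called in the same libraries, their signs had little room to change.

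**Figure D4:**
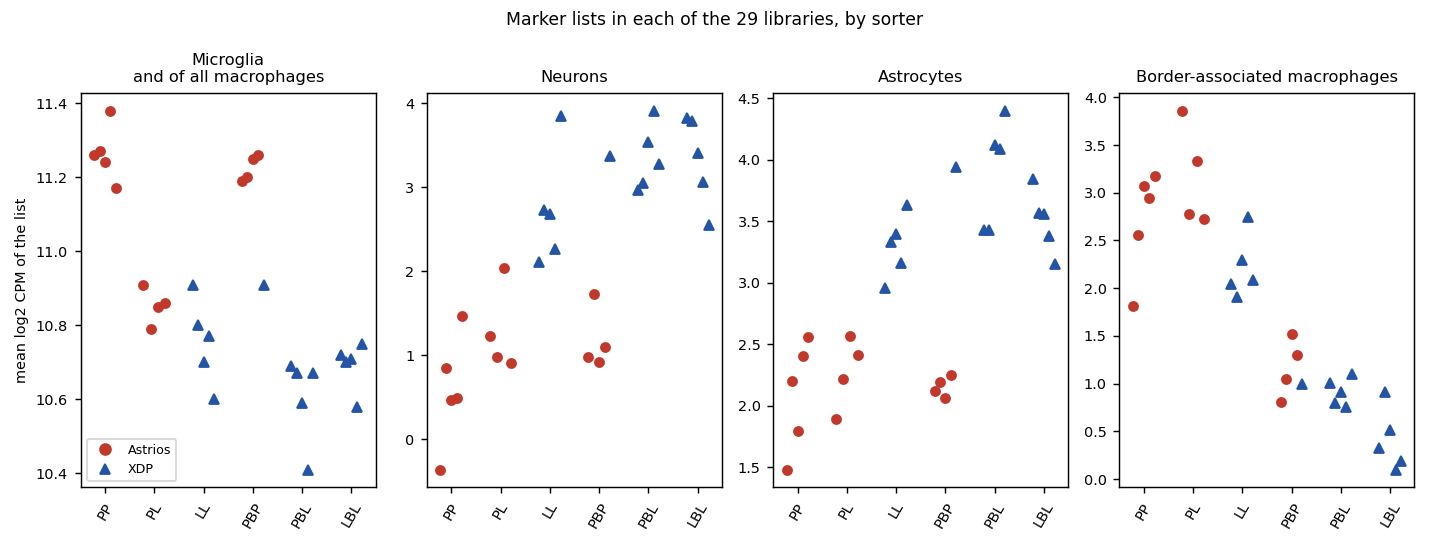
Mean log2 CPM of 4 marker lists in each of the 29 libraries by group, with libraries sorted on the Astrios as red circles and on the XDP as blue triangles. Neuron and astrocyte markers are higher in all LL than in all PL libraries and in the 1 PBP library sorted on the XDP than in the other 4, and the border-associated macrophage markers are lower in the 3 groups given BLZ945.

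PBP is the single group with both instruments: replicates 1 to 4 were sorted on the Astrios and replicate 5 on the XDP, all after saline. PBP replicate 5 also differs from them in sorting day, 3 against 4, and in RNA quality number, 7.4 against 8.8 to 9.0, so the sorter cannot be told apart from these here. PBP replicate 5 had a neuron marker mean of 3.37 on the log2 CPM scale against 0.92 to 1.73 in the other PBP libraries. It exceeded their mean by 1 log2 unit or more in 66 of the 125 genes higher in LL, with a median of 1.23 over these genes, against -0.25 over the 338 lower genes and 0.00 over all genes tested. With the sorter as a term in the fit, which this 1 library alone makes estimable, Snap25 came to -0.26, Camk2a to -0.51, Clu to -0.63, Aldoc to -0.63 and Atp1b2 to 1.31, none called. With the neuron marker mean as a covariate in place of the sorter, 239 genes were lower (1.44% of the genes tested) and 45 higher (0.271%), and 206 of the 338 lower and 20 of the 125 higher genes were called again.

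With the sorter in the fit, most of the lower genes lost their calls but not their sign. Of the 338, 307 kept a fold change below 0 (90.8%), beside 7954 of all 16632 genes tested. For 120 of them (35.5% of the 338) the unadjusted p by edgeR was also under 0.05. Both held for 5.79% of all genes tested. The median over the 338 went from -0.96 to -0.60. The 338 were chosen in these same libraries, so these shares are no independent support. Called genes numbered 10 lower (0.0601% of the genes tested) and 1 higher (0.00601%), each at an adjusted p of 0.0494 by edgeR. They held 5 of the 338 lower genes (1.48%) and 0 of the 125 higher genes. The standard error of the median gene rose from 0.26 to 0.50. Among the 10 were Adm, mt-Nd6, Casp4, which encodes the sensor of cytosolic LPS (-1.63, SE 0.33), and Mapk6 (-1.42, SE 0.29), an atypical MAP kinase. Adm came to -10.42 (SE 2.04) in this fit, against -5.12 without the sorter. It had no count in PBP replicates 1 to 4 and 4 counts in replicate 5, on which its sorter term rests. Casp4 was at 127.8, 77.4, 143.6 and 139.6 CPM in PL and at 63.4, 53.1, 68.4, 66.8 and 84.2 CPM in LL, with overlap of PL replicate 2. Mapk6 was at 92.8, 63.6, 65.0 and 64.2 CPM in PL and at 34.3, 40.4, 29.4, 32.5 and 47.2 CPM in LL, without overlap. Tnfaip3 came to -2.69 (SE 0.67), Ifit1 to -2.13 (SE 0.61) and Nfkbia to -0.63 (SE 0.21) in this fit, none called. Errors were large for other genes: Tnf came to -2.04 (SE 1.19), Cxcl10 to -3.37 (SE 2.70) and Il1b to -0.17 (SE 2.5). Values moved toward 0 by more than 1.5 log2 units for Dusp2 (-0.48, SE 2.37), Cxcl2 (-1.33, SE 6.62), Tnip3 (-1.36, SE 3.93) and Tnfsf9 (-1.29, SE 2.02), among others. By more than 1.5 log2 units they moved away from 0 for Adm, Cxcl1 (-10.45, SE 3.1) and Cd40 (-4.73, SE 2.04). They turned positive for Cd69 (3.27, SE 4.10), Ch25h (4.58, SE 4.68), Slc7a11 (1.79, SE 1.8) and Ptgs2 (1.46, SE 3.49). The call for Slc7a11 was also lost without LL replicate 2, 3 or 4 or PL replicate 1 or 3 (adjusted p from 0.0526 to 0.12).

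A second pair of groups, LBL and PBL, differs in the earlier LPS as LL and PL do, shares no library with them, was given BLZ945, and was sorted wholly on the XDP, PBL on day 3 and LBL on days 1 and 2. LL was sorted on the same sorter and the same days 1 and 2 as LBL, so both groups with earlier LPS share days that neither PL nor PBL has. The neutrophil markers differed in this pair, with a mean log2 CPM of 4.19 to 5.77 in PBL and -0.49 to 0.62 in LBL, 7 of 8 called lower in LBL and a median log2 fold change of -7.78. Their part in the values of this pair was not tested. There 665 genes were lower with earlier LPS (4.0%) and 456 higher (2.74%). Of the 338 genes lower in LL, 242 were also lower in LBL (71.6% of the 338 and 36.4% of the 665), none was higher, and 328 had a fold change below 0 (97.0%, against 48.6% of all genes tested). The median over the 338 was -0.90. Tnf was at 157.7 ± 27.2 CPM in PBL and 22.4 ± 5.50 CPM in LBL (SD, n = 5 each), Cxcl10 at 697.7 ± 133.5 and 25.1 ± 15.6 CPM, Tnfaip3 at 405.2 ± 94.5 and 46.1 ± 14.1 CPM, and Nfkbia at 2186.6 ± 118.9 and 1053.5 ± 170.8 CPM. These levels with earlier LPS lay near those of LL. Of the 125 higher genes, 11 were also higher in LBL (8.80% of the 125 and 2.41% of the 456), a share set beside 2.74% of all genes, and 71 had the same sign (56.8%, against 51.4%). Rgs2 was among the 11, at 68.4 ± 25 CPM in PBL and 128.0 ± 18.7 CPM in LBL; Snap25 had a log2 fold change of 0.18 and Atp1b2 of -0.42. Across all 16632 genes the correlation of the 2 sets of fold changes was r = 0.189, where genes are not independent replicates.

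**Figure D5:**
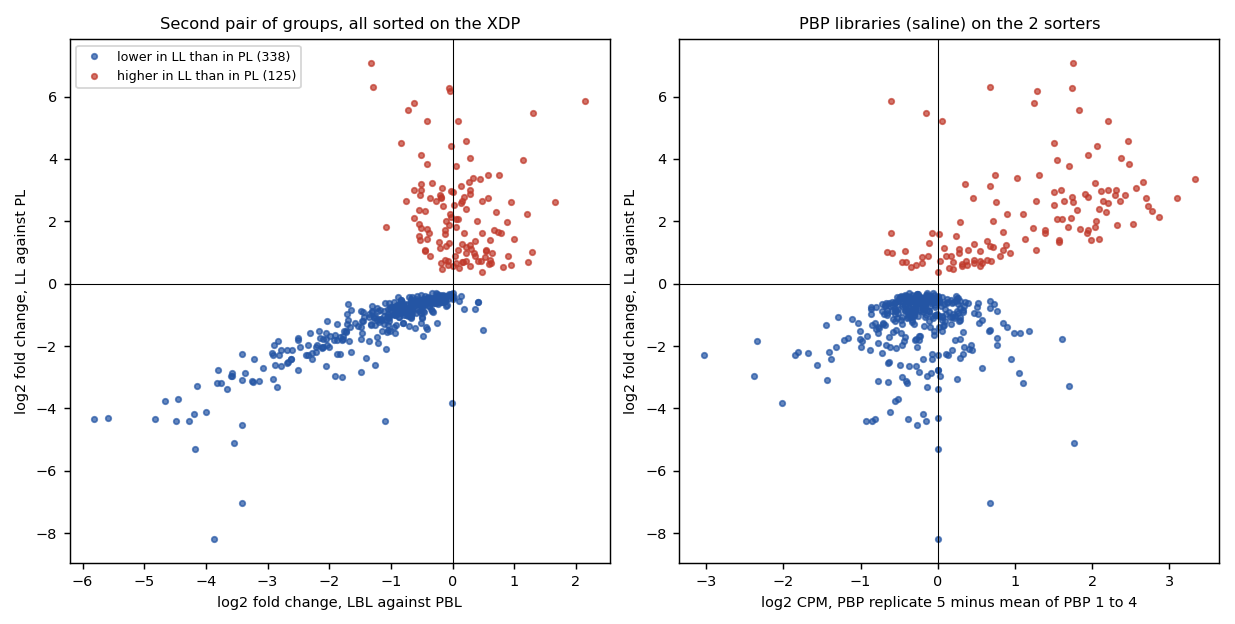
Log2 fold change of LL against PL for the 338 genes called lower (blue) and the 125 called higher (red), on the y axis, against the log2 fold change of LBL against PBL (left) and against the log2 CPM of PBP replicate 5 minus the mean of PBP replicates 1 to 4 (right). On the left the blue points run along a diagonal with a median of -0.90 on the x axis and the red points scatter around 0.08; on the right the red points extend to the right, with a median of 1.23, and the blue points centre on -0.25.

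The difference between the 2 effects was tested gene by gene over all 29 libraries. It was called for 4 genes (0.0241% of the genes tested), each at an adjusted p of 0.0495 by edgeR. The sorter differs between LL and PL and not between LBL and PBL, so it cannot be told apart from BLZ945 in this difference. With the sorter in the fit no gene was called. Atp1b2, a subunit of the sodium pump, was at 0.498, 1.07, 1.18 and 2.12 CPM in PL and 8.61, 23.3, 14.6, 14.8 and 25.9 CPM in LL. It was at 28.7 ± 12.0 CPM in PBL and 21.6 ± 7.77 CPM in LBL (difference of log2 effects 4.25). In PBP replicate 5, sorted on the XDP, Atp1b2 was 2.48 log2 units above the mean of PBP replicates 1 to 4. Tnfrsf11a, which encodes the receptor RANK, averaged 47.7 ± 5.59 CPM (SD) over the 4 PL libraries and 45.6 ± 5.57 CPM over the 5 LL libraries but was at 27.9 ± 3.93 in PBL and 49.5 ± 2.94 in LBL (n = 5 each; difference -0.90). Max, the partner of Myc, had the same pattern, 43.6 ± 6.74 and 38.0 ± 4.86 CPM against 26.3 ± 4.46 and 45.0 ± 2.39 CPM (difference -0.97). Serpinb1a, an inhibitor of neutrophil proteases, had no count in PL and 18 counts in LL, at least 4.15-fold higher, and was at 2.74 ± 1.67 CPM in PBL and 0.24 ± 0.257 in LBL (difference 8.32). The neutrophil markers S100a9 and Ltf were likewise at 39.3 and 21.1 CPM in PBL and at 0.0936 and 0.0316 CPM in LBL, and the difference test did not call them (adjusted p = 0.102 and 0.0646 by edgeR). Their part in the value of Serpinb1a was not tested. None of the cytokine, chemokine or NF-kB genes was among the 4, but with 0.0241% of all genes called this absence says little about them. Without PL replicate 3 the test called 23 genes, without LL replicate 2 it called 5, without LL replicate 1 it called 3, and without any other single library of LL or PL none.

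Single libraries weighed on the counts of LL against PL. PL replicate 2 was the lowest PL library in 241 of the 338 lower genes (71.3%, against 27.8% of all genes), including 15 of 17 cytokine and 15 of 18 chemokine genes, and without it 403 genes were called lower. LL replicate 5 was the highest LL library in 151 of the 337 lower genes with a count in LL (44.8%) and in 68 of the 125 higher genes (54.4%), against 23.4% of all genes. Lower calls came to 221 without PL replicate 1 and 223 without PL replicate 3. Higher calls came to 49 without PL replicate 4, 55 without PL replicate 1, 69 without LL replicate 3 and 71 without LL replicate 5. In every fit that left out 1 library, 171 of the lower and 19 of the higher genes were called. All 338 lower genes kept their sign in each of these 9 fits. They were chosen in the same libraries, so their signs could hardly change. Against the PL libraries of day 4 alone 162 genes were lower and 27 higher, against those of day 5 alone 369 and 82. With the LL library of day 1 alone, the median log2 fold changes of the 338 lower and 125 higher genes were -0.79 and 2.32. The variation of this 1 library had to be assumed equal to that of the rest of the study, and its values helped choose these genes.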

How the data were processed

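Deposited counts per gene, not normalized by the authors, were used for 29 libraries; per the submitters' processing notes the tools included cutadapt 2.10, TopHat and HTSeq 0.11.0 and the build was GRCm39. The strand setting of the counting is not given in the sources used here. Of 36982 genes, 4744 had no count, and 1323 without an Ensembl identifier held 1.29% of counts. RNA quality numbers, a score, and the sorter and day come from the deposited sample table.

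Genes with enough counts by edgeR's filter (16632) were scaled by TMM and tested with the quasi-likelihood test of edgeR 4.0.16 (R 4.3.3) over all 29 libraries, with 1 term per group and 23 residual degrees of freedom. P-values were adjusted by Benjamini-Hochberg over all genes tested, with a threshold of 0.05. CPM use the scaled library sizes. A count of 0 in a group was replaced by 3 counts over the group for bounds. Counting intervals and floors cover counting error only. The script was tested on simulated data. DESeq2 1.42.0 and limma 3.58.1 served as alternatives, beside another scaling, no filter, other sample sets, covariates, single days, left-out libraries and a replicate block.

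The comparison, the gene lists and the genes named were chosen with earlier results of these data known. Named genes are list members, the 25 largest falls and rises with at least 5 CPM in the higher group and no overlap, genes also called with the sorter in the fit, and the 10 smallest p-values of the difference test, of which a selection is described. No 2 libraries of LL or PL agreed within sampling noise. Some items are not reported here.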

Additional observations from a re-analysis of the deposited data

Results flagged for a closer look

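In 300 groups of values (150 genes described, PL and LL each), 38 held a library that stood apart from the rest by Dixon's test at 95%. Chance flags about 1 in 20 groups, and genes are not independent of each other. LL replicate 5 accounted for 14 of the 38, each time as the highest LL library. It was at 265.4 CPM for Ccl4, 49.5 for Ccl5, 22.2 for Ch25h, 54.0 for Cxcl10, 0.548 for Cxcl11, 50.2 for Il1rn and 29.7 for Il6. The same library was at 585.8 CPM for Jak1, 1.1 for Mmp13, 5.04 for Oasl1, 9.64 for Slc7a11, 2.85 for Tgtp2, 582.7 for Tlr2 and 13.5 for Tnip3. LL replicate 5 is the single LL library of day 1, and the part of the day was not tested.

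PL replicate 2 accounted for 7. It was the lowest PL library at 13.4 CPM for Cd40, 52.9 for Fos, 1166.3 for Gpr84, 979.8 for Icam1, 7.13 for Snap25 and 28.2 for Vcam1, and the highest at 53.7 for Max. PL replicate 1 was highest for Irgm1 (295.1 CPM) and Mapk6 (92.8), PL replicate 3 highest for Ltf (1.07), and PL replicate 4 lowest for Fkbp5 (497.3).

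LL replicate 1 was highest for Cxcl1 (0.146 CPM, 1 count), Egr1 (134.9), Egr2 (57.7) and Tgfb1 (30.5). LL replicate 2 was highest for H2bc6 (9.42 CPM), Max (46.5) and Ticam1 (31.9) and lowest for Il18 (27.9) and Pycard (444.1). LL replicate 4 was highest for Cxcl2 (1.8 CPM) and the neutrophil markers Ltf (4.29) and S100a9 (3.32) and lowest for Ier3 (89.2).

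By edgeR's test, LL minus PL differed from LBL minus PBL for Atp1b2 (4.25 on the log2 scale), Tnfrsf11a (-0.90), Max (-0.97) and Serpinb1a (8.32). Beside Serpinb1a, neutrophil markers were high in PBL. The sorter differs between LL and PL and not between LBL and PBL, so it cannot be told apart from BLZ945 here.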

How the results depend on the processing

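The count of 338 lower genes became 10 with the sorter in the fit, of which 5 were among the 338. It became 162 with the PL libraries of day 4 alone. Under the other alternatives it stayed within 1.5 times, apart from left-out libraries (221 to 403) and the LL library of day 1 alone. With that 1 library the median log2 fold changes of the 338 lower and 125 higher genes were -0.79 and 2.32. The count of 125 higher genes became 284 by DESeq2, 69 by limma voom, 45 with the neuron marker score and 217 with RNA quality. With the sorter it became 1, and 0 of the 125 were called again. It became 71 with the LL libraries of day 2 alone and 49 to 166 with a library left out. The PL libraries of day 4 or day 5 alone gave 27 and 82. The 4 genes of the difference test became 31 by DESeq2, 35 with the compared groups alone, 104 with the PL libraries of day 4 alone, 1 with the neuron marker score, 0 to 23 with a library left out, and 0 with the other scaling (2416 at an unadjusted p under 0.05), no filter (3698), limma voom (2564), the sorter (793), RNA quality (1726), the LL libraries of day 2 (1959) and the PL libraries of day 5 (1754). The cause was not tested. Of 97 called genes described, 12 changed sign with the sorter in the fit, without a call: Aldoc (-0.63), Camk2a (-0.51), Cd69 (3.27), Ch25h (4.58), Clu (-0.63), Ifngr2 (0.02), Kif1a (-0.21), Mapt (-0.02), Ptgs2 (1.46), Slc7a11 (1.79), Snap25 (-0.26) and Sparcl1 (-0.26); 81 more lost the call and 4 kept it. No other alternative changed a sign among the 97, but Adm and Cxcl11 were not tested with the compared groups alone. The 97 were called in these same libraries, so a kept sign is no independent support. List medians moved by more than the spread between LL libraries in 45 of 50 lists with the sorter. Same-numbered LL and PL libraries did not deviate together (r = -0.028, 0.071, 0 and 0.048). These values show no pairing by number but cannot exclude one, and the labels do not describe any. With a replicate block 318 genes were lower, 77 higher and 1 in the difference test.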
